A study of Mus musculus with 8 samples.

Results

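Tubular injury marker genes are genes whose RNA is known to rise when the kidney tubule is damaged. The 10 genes *Havcr1*, *Lcn2*, *Krt20*, *Spp1*, *Vcam1*, *Sox9*, *Clu*, *Cd44*, *Timp1* and *Cxcl1* were taken by name from the table of deposited gene counts, and all 10 were found among its 55367 genes. They were compared between whole kidneys of 4 Maf conditional KO mice and 4 Maf flox/flox mice, all of strain C57BL/6J and labelled as 8 weeks old. The Maf conditional KO mice carry floxed *c-Maf* and the *CAG-Cre-ER* TM transgene (*c-Maf* ΔTAM), in which a promoter active in nearly all cells drives a Cre that tamoxifen (TAM) switches on. The Maf flox/flox mice carry floxed *c-Maf* alone (*c-Maf* fl/fl). Both genotypes received TAM, so Cre itself is present in the Maf conditional KO mice and absent from the controls, and its effect and that of *Maf* loss cannot be told apart. The question asked of these genes was whether deleting *Maf*, which encodes a basic leucine zipper transcription factor, changed the injury state of the tubule.

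A proximal tubule cell that is damaged loses transporters of its brush border and turns on a repair program. The surface of such cells displays kidney injury molecule-1, the product of *Havcr1*, which binds phosphatidylserine on dying cells, and the distal nephron secretes neutrophil gelatinase-associated lipocalin, the product of *Lcn2*, which binds iron-loaded siderophores. Cells that fail to finish repair keep adhesion molecules such as VCAM1 and release chemokines that draw in leukocytes, while osteopontin, encoded by *Spp1*, is made in healthy distal segments too.

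The counts of the 8 mice totaled between 16649129 and 22990257 reads, and mitochondrial genes took 17.1% to 32.3% of them, with the highest share in Maf conditional KO mouse 1. The targeted gene, *Maf*, had 178, 671, 533 and 187 counts in Maf conditional KO mice 1 to 4 against 7746, 7580, 6018 and 5988 in Maf flox/flox mice 1 to 4, a log2 fold change of -4.05 ± 0.51 (SE; edgeR quasi-likelihood test, adjusted *P* = 0.0115). The labels call the tissue whole kidney, although their extraction text names liver. The podocyte, tubule and collecting duct genes checked were abundant in every mouse, with *Umod* at 32383 to 70212 counts, whereas the hepatocyte gene *Ahsg* was at 0 in all 8 mice and *Alb* had 13 to 196 counts. Of the hepatocyte genes checked, *Apob* was the exception, at 8540 to 15231 counts. *Xist*, the RNA made from the inactive X chromosome of female cells, had 17618 to 22387 counts in 5 mice and 2 to 22 counts in Maf conditional KO mouse 1 and Maf flox/flox mice 3 and 4. The labels used here do not give the sexes, so these are called the 5 high-*Xist* mice (3 Maf conditional KO, 2 Maf flox/flox) and the 3 low-*Xist* mice (1 Maf conditional KO, 2 Maf flox/flox).

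Promoter sequences from RefSeq (GRCm38.p6, from 250 bases before to 50 bases after a start site, written 5′ to 3′ on the strand of the gene) were found for 7 of the 10 genes, in 10 windows, since *Havcr1* and *Spp1* have several start sites. *Vcam1*, *Sox9* and *Clu* were not in that table. Those of *Spp1*, *Cxcl1* and *Havcr1* are shown because the values of these 3 genes differed by genotype or by *Xist* class in the results that follow. Capitals mark the letters TATAAA in *Spp1*, matches to the NF-kB motif in *Cxcl1* and letters of the AP-1 motif (TGANTCA) in *Havcr1*, and positions are counted from the start site.
*Spp1*, chr5:104434861-104435160, plus strand: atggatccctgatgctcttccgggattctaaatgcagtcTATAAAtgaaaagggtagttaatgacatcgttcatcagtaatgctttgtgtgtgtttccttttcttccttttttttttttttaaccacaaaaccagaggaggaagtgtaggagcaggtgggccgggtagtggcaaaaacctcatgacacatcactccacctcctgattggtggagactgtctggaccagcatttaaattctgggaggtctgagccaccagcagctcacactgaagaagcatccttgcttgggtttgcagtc
*Cxcl1*, chr5:90890995-90891294, plus strand: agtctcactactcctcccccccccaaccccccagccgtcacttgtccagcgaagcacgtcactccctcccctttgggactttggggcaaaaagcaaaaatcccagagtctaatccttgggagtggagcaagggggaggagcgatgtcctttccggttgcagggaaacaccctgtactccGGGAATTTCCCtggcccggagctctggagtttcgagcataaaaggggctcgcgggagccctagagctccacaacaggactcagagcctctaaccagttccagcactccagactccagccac
*Havcr1*, chr11:46750918-46751217, plus strand, 1 of its 3 windows: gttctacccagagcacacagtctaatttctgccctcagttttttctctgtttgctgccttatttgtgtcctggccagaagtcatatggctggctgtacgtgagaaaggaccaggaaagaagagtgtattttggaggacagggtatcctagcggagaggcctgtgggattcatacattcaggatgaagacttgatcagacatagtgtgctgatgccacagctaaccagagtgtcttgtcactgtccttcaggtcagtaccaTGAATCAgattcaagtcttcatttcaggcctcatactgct
The NF-kB matches of *Cxcl1* overlap each other on the 2 strands and lie between positions -71 and -61. The TATAAA letters of *Spp1* lie from -211 to -206, those of *Krt20* from -29 to -24, and the AP-1 letters of this *Havcr1* window from 11 to 17. Searched on both strands, the half-MARE bound by Maf proteins (TGCTGAC) was in 0 of the 10 windows and in 4.67% of all 32851 promoters of the table. The STAT motif (TTCNNNGAA) was in 0 of 10 and 8.3% of all, and AP-1 in 1 of 10 and 7.81%. The letters of a TATA box (TATAAA), at any position, were in 2 of 10 and 13.6%, and NF-kB in 1 of 10 and 8.46%. These matches describe letters in a short window and carry no measure of binding.

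Levels are given as CPM, a gene's counts set against a library of common size after TMM scaling, and, where genes are compared with each other, as CPM per kb of exon. Per length, *Spp1* was the most abundant marker at 384 ± 133 CPM per kb (SD, n = 8 mice), followed by *Clu* at 61.2 ± 10.3, and the lowest mouse for *Spp1* (210) stood above the highest for *Clu* (77.1). *Clu* in turn stood clear of *Havcr1*, which came next at 3.43 ± 3.81 CPM per kb. *Havcr1*, *Lcn2* (1.49 ± 1.43) and *Vcam1* (1.40 ± 0.37) overlapped as neighbours in this order. *Vcam1* did not overlap *Sox9* (0.458 ± 0.113), and each of the lowest neighbours, *Sox9*, *Cd44* (0.450 ± 0.158), *Timp1* (0.302 ± 0.211), *Cxcl1* (0.293 ± 0.190) and *Krt20* (0.268 ± 0.205), overlapped the next. Because of this order, *Spp1* alone made up 61.1% to 80.5% of the summed CPM of the 10 genes, and a sum over the list is mostly a reading of *Spp1*.

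**Figure D1:**
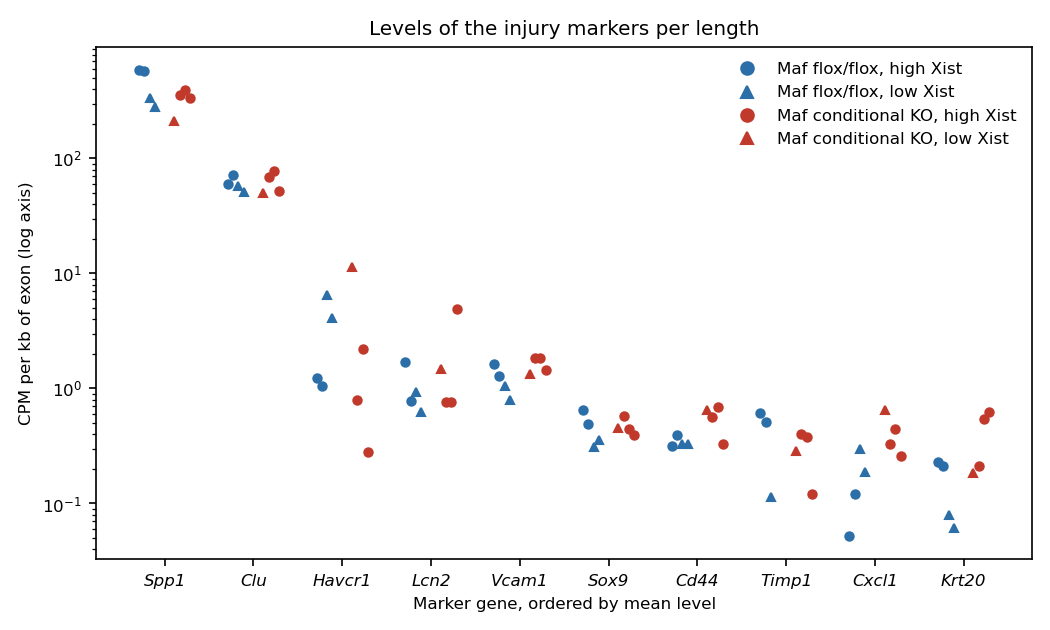
Level of each injury marker in CPM per kb of exon (log axis), 1 point per mouse, coloured by genotype and shaped by *Xist* class. *Spp1* and *Clu* stand above all other markers, *Havcr1* spreads from 0.281 to 11.4, and the value of 0 for *Timp1* in Maf flox/flox mouse 4 cannot be drawn.

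Of the 10 genes, 8 passed edgeR's filter on low counts and were tested among 20149 genes, and *Krt20* and *Timp1* did not pass. By genotype over all 8 mice, 0 of the 8 tested markers were called at an adjusted *P* under 0.05 in edgeR's quasi-likelihood test, where 2.16% of all genes were called (0.586% higher and 1.58% lower in Maf conditional KO mice). edgeR's exact test, DESeq2 and limma on quantile-normalized values also called 0 of 8, where they called 3.38%, 4.4% and 1.93% of all genes. At such shares, 0 of 8 is near the background. At an unadjusted *P* under 0.05, 3 of 8 were higher in the Maf conditional KO mice (*Vcam1*, *Cd44* and *Cxcl1*) and 0 were lower, against 6.58% of all genes higher at that limit. Of these, *Cxcl1* entered the test through a filter that the Maf conditional KO mice met alone, so it is no support. None of the 8 separated the genotypes mouse by mouse, which 9.79% of all tested genes did. Their median log2 fold change was 0.32, and that of all tested genes was 0.00. In whole kidney RNA, fewer cells of a type and less RNA per cell cannot be told apart, which holds for each value given here.

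*Havcr1*, the surface receptor of injured proximal tubule cells (chromosome 11, 46735080 to 46779578), had 26.3, 1.85, 5.05 and 0.650 CPM in Maf conditional KO mice 1 to 4 and 2.84, 2.44, 14.9 and 9.50 CPM in Maf flox/flox mice 1 to 4. The highest and the lowest of the 8 mice were both Maf conditional KO mice, 40.5-fold apart. The log2 fold change was 0.20 ± 1.17 (SE; edgeR, adjusted *P* = 0.963), and its 95% interval ran from 0.161-fold to 8.21-fold, so a change of several fold in either direction was not detectable. Without Maf conditional KO mouse 1 the log2 fold change was -1.56 (adjusted *P* = 0.556).

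*Lcn2*, the siderophore-binding lipocalin (chromosome 2, 32384633 to 32388252), had 3.87, 2.00, 2.00 and 12.8 CPM in Maf conditional KO mice 1 to 4 and 4.41, 2.03, 2.44 and 1.64 CPM in Maf flox/flox mice 1 to 4. Only Maf conditional KO mouse 4 exceeded the highest Maf flox/flox mouse, and the log2 fold change of 0.97 ± 0.67 (adjusted *P* = 0.591) became -0.01 (adjusted *P* = 0.996) without it, by edgeR. Markers of the urothelium, the lining of the renal pelvis, had their highest summed level in the same mouse, as described with the cell type markers.

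*Krt20*, a keratin that damaged proximal tubule cells turn on and that urothelium makes at rest (chromosome 11, 99428403 to 99438150), had 7, 8, 19 and 22 counts in Maf conditional KO mice 1 to 4 and 9, 9, 3 and 2 counts in Maf flox/flox mice 1 to 4. The means were 0.753 ± 0.431 CPM (SD, n = 4) and 0.279 ± 0.168 CPM (SD, n = 4), and Maf conditional KO mice 1 and 2 lay below the highest control. Only Maf conditional KO mice 3 and 4 reached 10 counts, so the gene enters a test of the 5 high-*Xist* mice only through the genotype where it is high, and no test is given.

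**Figure D2:**
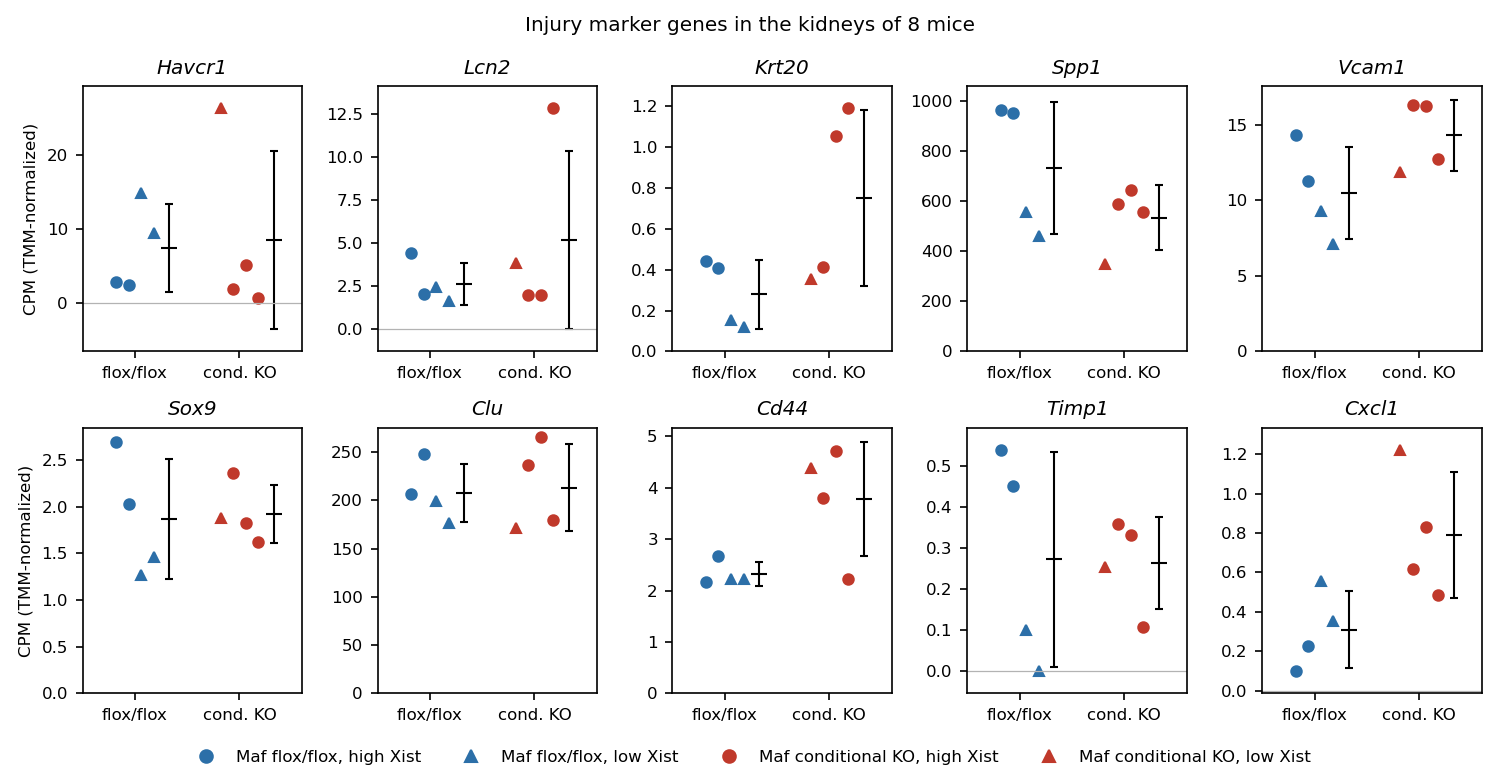
CPM of each injury marker in each of the 8 mice, coloured by genotype, with circles for high-*Xist* and triangles for low-*Xist* mice, and the mean ± SD of 4 mice beside them. The genotypes overlap for all 10 genes, and for *Havcr1* the 3 triangles (26.3, 14.9 and 9.50 CPM) lie above the circles.

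*Spp1*, the secreted matrix protein osteopontin, which binds integrins and calcium crystals (chromosome 5, 104435118 to 104441050), had 347, 587, 643 and 554 CPM in Maf conditional KO mice 1 to 4 and 962, 950.4, 555 and 459 CPM in Maf flox/flox mice 1 to 4. Maf flox/flox mice 1 and 2 were above every other mouse, while mice 3 and 4 lay within the range of the Maf conditional KO mice. Over all 8 mice the log2 fold change was -0.46 ± 0.29 (edgeR, adjusted *P* = 0.544, 95% interval 0.460-fold to 1.15-fold). Of its exonic bases, 18.8% overlap the gene *Gm42793*, and reads there were not counted for either gene.

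*Clu*, the secreted chaperone clusterin (chromosome 14, 65968483 to 65981547), had 171, 236, 265 and 179.5 CPM in Maf conditional KO mice 1 to 4 and 206, 248, 199 and 177 CPM in Maf flox/flox mice 1 to 4. The ranges overlapped almost fully, and the 95% interval of its fold change, 0.815-fold to 1.29-fold, was the narrowest of the 8 tested markers (log2 fold change 0.04 ± 0.15, edgeR, adjusted *P* = 0.944). *Timp1*, an inhibitor of matrix metalloproteinases (chromosome X, 20870166 to 20874735), had 5, 7, 6 and 2 counts in Maf conditional KO mice 1 to 4 and 11, 10, 2 and 0 counts in Maf flox/flox mice 1 to 4. The count of 0 allows up to 0.176 CPM (3 counts, counting error only), and no test was made at this depth.

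*Sox9*, a transcription factor of tubule cells that re-enter the cell cycle after injury (chromosome 11, 112782224 to 112787760), had 1.88, 2.36, 1.83 and 1.62 CPM in Maf conditional KO mice 1 to 4 and 2.70, 2.03, 1.27 and 1.47 CPM in Maf flox/flox mice 1 to 4. The Maf conditional KO mice all lay inside the range of the controls. The log2 fold change was 0.04 ± 0.28 (edgeR, adjusted *P* = 0.970), with a 95% interval from 0.676-fold to 1.57-fold.

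*Vcam1*, the adhesion molecule that binds leukocyte integrin α4β1 (chromosome 3, 116109949 to 116129688), had 11.9, 16.3, 16.2 and 12.8 CPM in Maf conditional KO mice 1 to 4 and 14.3, 11.3, 9.29 and 7.10 CPM in Maf flox/flox mice 1 to 4. Maf conditional KO mice 2 and 3 exceeded every control, and the log2 fold change was 0.44 ± 0.20 (edgeR, adjusted *P* = 0.353). *Cd44*, the hyaluronan and osteopontin receptor (chromosome 2, 102811141 to 102901665), had 4.38, 3.80, 4.71 and 2.22 CPM in Maf conditional KO mice 1 to 4 and 2.16, 2.66, 2.23 and 2.23 CPM in Maf flox/flox mice 1 to 4. Its first 3 Maf conditional KO mice stood above all 4 controls and the 4th did not, and the log2 fold change was 0.70 ± 0.24 (edgeR, adjusted *P* = 0.206).

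*Cxcl1*, a chemokine that attracts neutrophils (chromosome 5, 90891241 to 90893115), had 24, 12, 15 and 9 counts in Maf conditional KO mice 1 to 4 and 2, 5, 11 and 6 counts in Maf flox/flox mice 1 to 4, that is 1.22, 0.616, 0.832 and 0.487 CPM against 0.0981, 0.226, 0.558 and 0.352 CPM. Only Maf flox/flox mouse 3 overlapped the Maf conditional KO mice, by exceeding mouse 4. The log2 fold change of 1.36 ± 0.50 was the largest of the 8 tested markers, at an adjusted *P* of 0.244 in edgeR. Permuting the genotypes among the mice in all 70 ways (exact, two-sided) gave *P* = 0.0571, and no result could fall below 0.0286. At least 10 counts were reached in 3 Maf conditional KO mice and 1 Maf flox/flox mouse. The filter scales that limit to library size and asks for it in 4 mice. Scaled so, Maf conditional KO mouse 4, with 9 counts in the smallest library, passes as well. The Maf conditional KO mice alone therefore met the filter, and the controls alone did not. The gene thus entered the test through the genotype where it is high, and no test of it here is support for a difference. With 2 to 24 counts per mouse, sampling of reads makes up part of this spread.

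Several markers tracked the *Xist* class of the mouse. In a fit with genotype and *Xist* class together, added after the counts had been seen, 12.2% of the 20149 genes and 3 of the 8 markers were called by *Xist* class, with *Havcr1* in one direction and *Spp1* and *Vcam1* in the other. *Havcr1* was 6.85-fold higher in low-*Xist* mice (log2 difference of high minus low *Xist* -2.78 ± 0.57, edgeR adjusted *P* = 0.0346), and its 3 low-*Xist* mice (9.50 to 26.3 CPM) did not overlap the 5 high-*Xist* mice (0.650 to 5.05 CPM). That call was kept without Maf conditional KO mouse 3 or 4 and lost without any of the other 6 mice, where the adjusted *P* in edgeR was 0.0624 (without Maf flox/flox mouse 4) to 0.228 (without Maf conditional KO mouse 1). *Spp1* was lower in low-*Xist* mice (log2 0.86 ± 0.09 for high minus low, edgeR adjusted *P* = 4.75e-06), and this call was kept whichever mouse was left out. *Vcam1* was also lower in them (0.51 ± 0.15, adjusted *P* = 0.0328), a call kept without Maf conditional KO mouse 4 or Maf flox/flox mouse 2 or 3 and lost without each of the other 5 mice (adjusted *P* up to 0.154 in edgeR). *Krt20* was not tested, and its 3 low-*Xist* mice had 0.117 to 0.356 CPM against 0.406 to 1.19 CPM in the high-*Xist* mice.

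With *Xist* class in the fit, *Spp1* was lower and *Cxcl1* was higher in Maf conditional KO mice, which makes 2 of the 8 markers beside 7.47% of all genes. Of these calls, that of *Cxcl1* is no support, because the Maf conditional KO mice alone met its filter. For *Spp1* the log2 fold change by genotype was -0.64 ± 0.08 (0.643-fold, edgeR adjusted *P* = 8.29e-05). Among high-*Xist* mice the 3 Maf conditional KO mice had 587, 643 and 554 CPM and the 2 Maf flox/flox mice 962 and 950.4 CPM, and among low-*Xist* mice the single Maf conditional KO mouse had 347 CPM and the 2 controls 555 and 459 CPM. All values of one genotype therefore lay below those of the other within each class. This call was kept in each of 8 fits that left out 1 mouse, at log2 fold changes of -0.68 to -0.60. Thick limb markers, from a segment that makes osteopontin at rest, summed to 3156 to 5333 CPM in Maf conditional KO mice and 4007 to 5162 CPM in Maf flox/flox mice. Of these thick limb markers, 0 of 5 were called by genotype, also with *Xist* class in the fit. By *Xist* class 3 of 5 were called, beside 12.2% of all genes. The part of the thick limb in *Spp1* was not tested.

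For *Cxcl1* the log2 fold change beside *Xist* class was 1.67 ± 0.46 (3.18-fold, edgeR adjusted *P* = 0.0349), with 0.616, 0.832 and 0.487 CPM against 0.0981 and 0.226 CPM among high-*Xist* mice and 1.22 against 0.558 and 0.352 CPM among low-*Xist* mice. Both *Spp1* and *Cxcl1* thus kept the genotypes apart in the same direction in both classes, which 20.6% of all tested genes did. The *Cxcl1* call is no support, because the Maf conditional KO mice alone met its filter. It was kept only without Maf conditional KO mouse 4 or Maf flox/flox mouse 3. Without the latter, the only control with at least 10 counts, the gene passed the filter only through Maf conditional KO mice, so that fit is no support either. Without any other single mouse the adjusted *P* in edgeR was 0.0709 (without Maf conditional KO mouse 2) to 0.163 (without Maf conditional KO mouse 1). Within the 5 high-*Xist* mice alone, 1 marker was called, *Spp1* at a log2 fold change of -0.69 ± 0.09 (edgeR adjusted *P* = 0.000231), where 3.75% of 21027 genes were called. *Cxcl1* reached 10 counts only in Maf conditional KO mice there, so no test of it is given. For *Cd44* the fold change hardly moved with *Xist* class in the fit (0.71 ± 0.24, adjusted *P* = 0.0923), and for *Havcr1* the standard error fell to 0.59 without a call (0.49, adjusted *P* = 0.712).

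**Figure D3:**
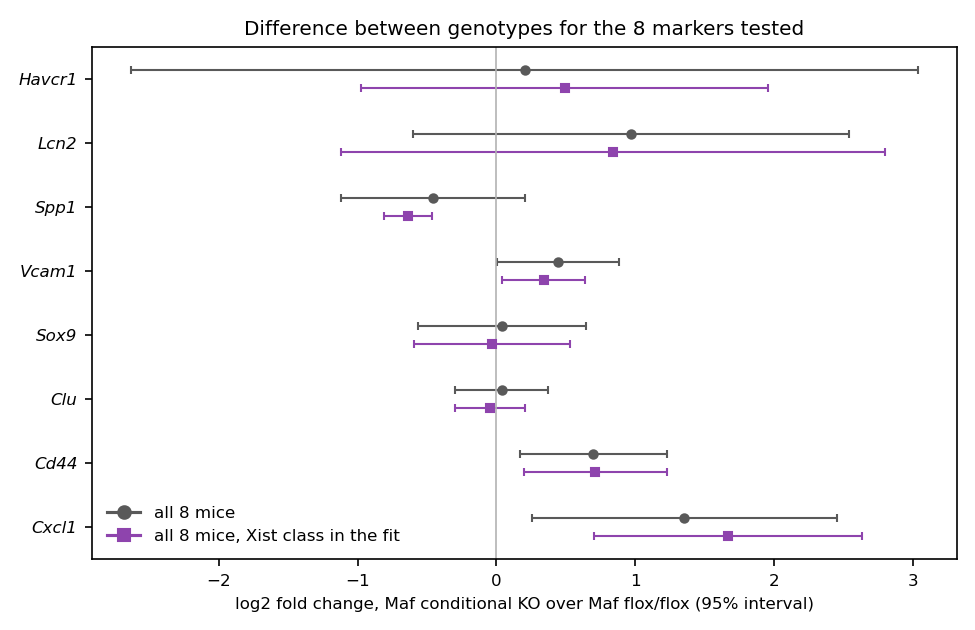
Log2 fold change (Maf conditional KO over Maf flox/flox) with its 95% interval for the 8 tested markers, from edgeR on all 8 mice without (circles) and with (squares) *Xist* class in the fit. The interval of *Spp1* narrows and leaves 0 when *Xist* class is included, while those of *Havcr1* and *Lcn2* span 0 in both fits.

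The markers did not single out the same mouse. Maf conditional KO mouse 1 was highest for *Havcr1* and *Cxcl1* and lowest for *Spp1* and *Clu*. Maf conditional KO mouse 4 was highest for *Lcn2* and *Krt20* and lowest for *Havcr1*, and Maf conditional KO mouse 3 was highest for *Clu* and *Cd44*. Maf conditional KO mouse 2 was highest for *Vcam1*. Among the controls, Maf flox/flox mouse 1 was highest for 3 genes (*Spp1*, *Sox9* and *Timp1*) and lowest for 2 (*Cd44* and *Cxcl1*), while mouse 4, a low-*Xist* mouse, was lowest for 4 (*Lcn2*, *Krt20*, *Vcam1* and *Timp1*). Mouse 1 of the Maf conditional KO group also had the highest mitochondrial share (32.3%), whose part in its values was not tested.

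**Figure D4:**
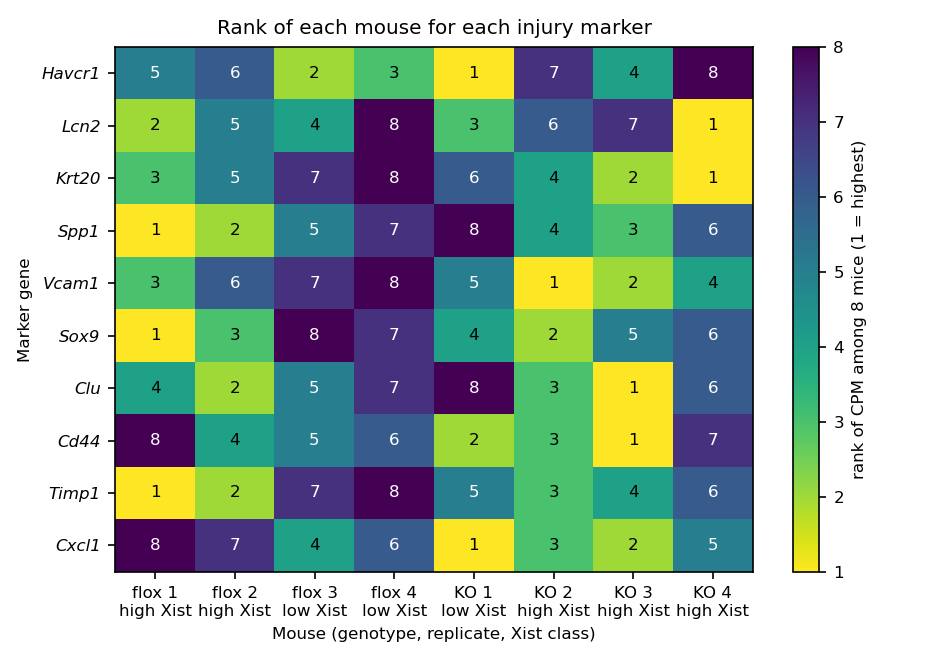
Rank of each of the 8 mice (columns, with genotype, replicate and *Xist* class) for each injury marker (rows), where 1 is the highest CPM. No mouse has rank 1 for more than 3 of the 10 genes, and Maf conditional KO mouse 4 is rank 1 for *Lcn2* and *Krt20* but rank 8 for *Havcr1*.

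Other genes of the injury response were read from lists of the same kind. Their counts of calls stand beside 0.586% of all tested genes called higher and 1.58% called lower. Of 22 genes of the injured epithelium (keratins, annexins, S100 proteins and others), 0 were higher and 1 was lower in Maf conditional KO mice, *Krt8*, a keratin of simple epithelia, at 22.2 ± 2.67 against 36.5 ± 3.48 CPM (SD, n = 4 each; log2 fold change -0.72 ± 0.11, edgeR adjusted *P* = 0.00517). Their median log2 fold change was 0.10. Of 19 tested genes of inflammatory injury, 1 (*Cxcl16*) was lower, and *Ccl2* passed the threshold upward in a test that its filter makes void, with a median of 0.20 over the list. *Ccl2*, a chemokine for monocytes, had 1.02, 1.75, 1.05 and 0.541 CPM in Maf conditional KO mice 1 to 4 and 0.294, 0.181, 0.304 and 0.352 CPM in Maf flox/flox mice 1 to 4. All 4 Maf conditional KO mice and 0 Maf flox/flox mice reached 10 counts of *Ccl2*, so it passed the filter only through the genotype where it is high, and its values are a description with no test. *Cxcl16*, a membrane-bound chemokine, was lower at 18.1 ± 1.41 against 28.8 ± 0.90 CPM (log2 fold change -0.67 ± 0.09, edgeR adjusted *P* = 0.00203).

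Of 18 tested genes of matrix and repair, 0 were called by edgeR's quasi-likelihood test, with a median of 0.02 and 2 higher at an unadjusted *P* under 0.05 (6.58% of all genes). These 2 were *Edn1*, the vasoconstrictor endothelin-1 (log2 fold change 0.91 ± 0.23, adjusted *P* = 0.0755), and *Plau*, the urokinase of tubule cells (0.44 ± 0.13, adjusted *P* = 0.122). edgeR's exact test called 1, limma on quantile-normalized values 1 and DESeq2 2 of these genes, all higher, and DESeq2 and the exact test also called more of all genes than the quasi-likelihood test (4.4% and 3.38% against 2.16%). Of 17 tested partners of the markers, which are receptors, ligands and relatives of the 10 genes, *Timp3*, a matrix-bound inhibitor of metalloproteinases, was lower at 865 ± 74.3 against 1191 ± 114 CPM (-0.46 ± 0.10, edgeR adjusted *P* = 0.0416) and none was higher. That call was kept only without Maf conditional KO mouse 1 or Maf flox/flox mouse 1, and without any other single mouse the adjusted *P* ran from 0.0859 (without Maf flox/flox mouse 2) to 0.146 (without Maf conditional KO mouse 3) in edgeR.

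Of 17 genes of the healthy tubule, 0 were higher and 2 lower in Maf conditional KO mice, where 0.586% and 1.58% of all genes were called. The median log2 fold change was -0.20. At an unadjusted *P* under 0.05 in edgeR, 5 of the 17 were lower and 0 higher, a limit whose downward share over all genes was not taken. *Slc34a1*, the proximal tubule phosphate transporter, had 1745 ± 202 against 4098 ± 490 CPM (0.426-fold, edgeR adjusted *P* = 0.000217). *Slc5a12*, a lactate transporter of the proximal tubule, had 121 ± 15.1 against 398 ± 101.9 CPM (0.305-fold, edgeR adjusted *P* = 0.000349).

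**Figure D5:**
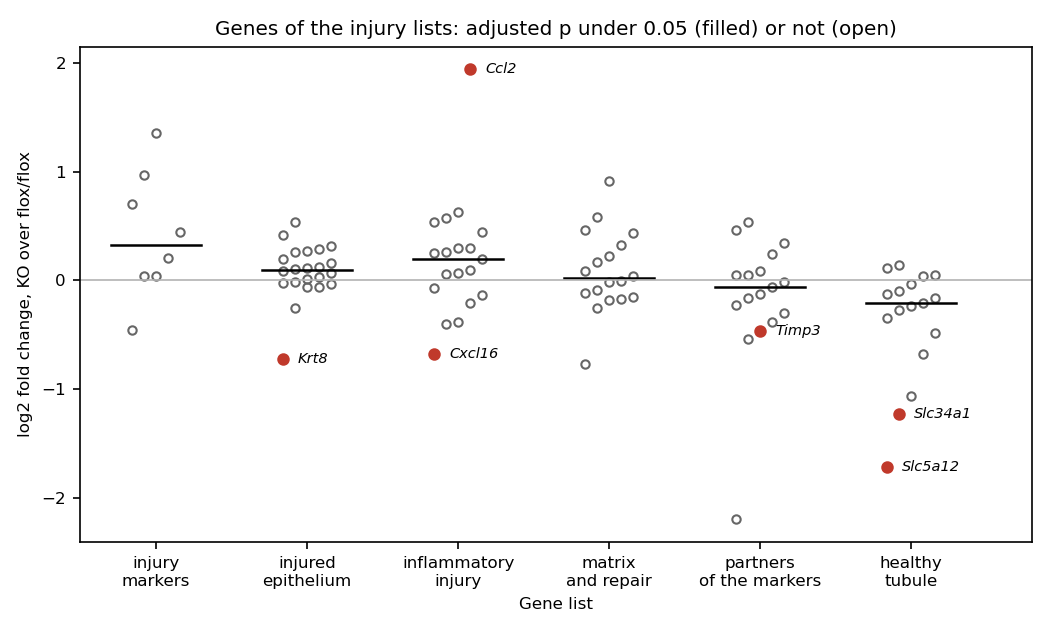
Log2 fold change (Maf conditional KO over Maf flox/flox, edgeR on 8 mice) of each tested gene in 6 gene lists, with a line at each list's median, filled points where the adjusted *P* is under 0.05 and open points elsewhere. The injury markers have 0 filled points, and *Slc34a1* and *Slc5a12* of the healthy tubule list lie lowest among the filled points.

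Leukocytes, urothelium and stroma make some of the markers as well, so their own markers were read in the same mice. Macrophage markers summed to 118 to 128 CPM in Maf conditional KO mice and 101 to 113 CPM in Maf flox/flox mice, without overlap, and 0 of 9 tested genes were called (3 higher at an unadjusted *P* under 0.05, edgeR, a limit that 6.58% of all genes passed upward). The most abundant, *Csf1r*, the receptor for colony-stimulating factor 1, was at 61.0 ± 3.39 against 54.3 ± 2.49 CPM. Neutrophil markers summed to 1.73 to 2.95 CPM against 1.03 to 2.13 CPM, and 1 of 10 passed the filter (*Csf3r*, 1.02 ± 0.11 against 0.601 ± 0.235 CPM, adjusted *P* = 0.351). *Ly6g* was at 0 counts in 5 of the 8 mice. The part of these cells in *Vcam1*, *Cd44* and *Cxcl1* was not tested. Lymphocyte markers summed to 2.90 to 5.49 against 2.35 to 3.48 CPM, with *Cd8a* the most abundant and 0 of 3 tested genes called.

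Endothelial markers summed to 572 to 606 CPM in Maf conditional KO mice and 583 to 687 CPM in Maf flox/flox mice. *Eng* was the most abundant of them (138 ± 9.74 against 131.5 ± 15.6 CPM). *Kdr*, a receptor for vascular endothelial growth factor, was lower at 84.7 ± 6.32 against 109.8 ± 7.17 CPM (-0.37 ± 0.09, edgeR adjusted *P* = 0.0450), a call lost without any single mouse (adjusted *P* from 0.0552 without Maf conditional KO mouse 1 to 0.138 without Maf flox/flox mouse 3). Fibroblast (*Col3a1* the most abundant), collecting duct (*Aqp2*) and urothelial (*Psca*) markers had 0 genes called. Hepatocyte markers, led by *Apob*, also had 0 called of 5 tested. Urothelial markers varied widely within each genotype, summing to 30.6, 10.99, 12.1 and 47.9 CPM in Maf conditional KO mice 1 to 4 and to 38.4, 17.5, 33.6 and 8.15 CPM in Maf flox/flox mice 1 to 4. The 4 mice with the most urothelial RNA were the 4 with the most *Lcn2* (12.8, 4.41, 3.87 and 2.44 CPM), and the lowest mouse was the same for both, an order noticed after the values had been seen. *Krt20*, in contrast, was second highest in Maf conditional KO mouse 3, which had 12.1 CPM of urothelial markers. The part of urothelium in either gene was not tested.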

How the data were processed

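RNA-Seq libraries of whole kidneys from 4 Maf conditional KO and 4 Maf flox/flox mice were analysed, each mouse as 1 replicate. The deposited values are raw read counts for each gene name, made by the authors using featureCounts 2.0.1 (per the file headers; the submitters' processing notes name Subread 2.0.2) on exons of Ensembl release 102 of GRCm38. Each mate of a pair was counted, without regard to strand, and those on exons of several genes were dropped. The sources used here do not name the aligner behind these counts; for its own values the study describes mapping to mm10 in CLC Genomics Workbench, which may not be the same alignment. Because strand was not used, reads on exons that a gene shares with an antisense partner were dropped for both. Antisense reads on the other exons of a gene were counted with its own.

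Genes were filtered with filterByExpr, scaled by TMM and tested with edgeR 4.0.16 (robust quasi-likelihood fit) in R 4.3.3 at a Benjamini-Hochberg adjusted *P* of 0.05. Standard errors were derived from the fold change and F (size of the log2 change over the root of F). The prior count was 2 for log2 CPM. The alternatives used limma 3.58.1, DESeq2 1.42.0, other filters, a replicate block, *Xist* as a covariate, the 5 high-*Xist* mice and each mouse left out. The fit with *Xist* class was added after the counts had been seen. No mouse matched another of its genotype within sampling noise. The scripts were tested on simulated counts. Figures used matplotlib.

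The 10 genes and all lists were chosen with earlier results of these data known. Named genes were the 10 markers, *Maf*, and from each other list the called genes with the smallest *P* (up to 4 each way, or the 2 smallest where none was called), with the most abundant and any called gene of each cell type list. Sums and positions come from the counts table, promoters from RefSeq. Some genes stand in several lists.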

Additional observations from a re-analysis of the deposited data

Results flagged for a closer look

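In 58 groups of 4 mice (29 genes in each genotype), 4 had a highest or lowest mouse farther from the others than Dixon's 95% limit allows, where chance gives about 1 in 20, or 2.9. Among the injury markers this was *Cd44* in Maf flox/flox mouse 2, where 2.66 CPM stood against 2.16 to 2.23 CPM for the 3 remaining controls. The others were *Csf1r* in Maf flox/flox mouse 2 (58.0 CPM against 52.7 to 53.5), *Kdr* in Maf flox/flox mouse 3 (120 CPM against 105 to 107) and *Aqp2* in Maf flox/flox mouse 1 (230 CPM against 121 to 131).

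*Timp1* was set apart because its genotypes were ordered in opposite ways in the *Xist* classes, a difference that was not tested. Among high-*Xist* mice the 3 Maf conditional KO mice had a mean of 0.267 CPM and lay below the 2 controls (mean 0.495 CPM), and among low-*Xist* mice the Maf conditional KO mouse, at 0.254 CPM, lay above the 2 controls (mean 0.0507 CPM). These values rest on 0 to 11 counts per mouse.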

How the results depend on the processing

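The counts of called genes given here are read beside the share of all genes called, which was 2.16% in the fit reported and 6.82% with *Xist* as a covariate, 7.47% with *Xist* class as a factor, 3.75% among the 5 high-*Xist* mice, 4.4% with DESeq2, 3.38% with the exact test, 1.93% with limma-trend and 0.64% with the replicate block. Here limma-trend stands for limma on quantile-normalized values, which changes both the normalization and the test. The count of injury markers called by genotype was 0 under every setting tried except 3: 2 with *Xist* as a covariate, 2 with *Xist* class as a factor (added later) and 1 among the 5 high-*Xist* mice. Both counts of 2 include *Cxcl1*, whose call is no support. Injured epithelium genes called (1) became 2 with DESeq2, 0 with the replicate block, 3 with the *Xist* covariate, 2 among the 5 mice and 3 with the *Xist* factor. Inflammatory genes (2, with *Ccl2*) became 1 with limma-trend, the filter of 10 counts in every mouse, the replicate block and the 5 mice, and ranged from 1 to 2 with 1 mouse left out. Matrix and repair genes (0) became 1 with limma-trend, the exact test and the filter of 1 count, 2 with DESeq2, the 5 mice and the *Xist* factor, and 3 with the *Xist* covariate. Partners (1) became 0 with limma-trend, the exact test and the replicate block, 2 with the *Xist* covariate, the 5 mice and the *Xist* factor, and ranged from 0 to 1 with 1 mouse left out. Healthy tubule genes (2) became 3 with the exact test and with DESeq2 and 4 among the 5 mice. *Maf* was at -4.28 with the replicate block (edgeR adjusted *P* = 0.0516) and -3.87 among the 5 mice (adjusted *P* = 0.108).

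Uncalled markers changed sign as follows. *Havcr1* was at -0.61 with limma-trend, -0.66 with the replicate block, -0.0782 among the 5 mice, and -1.56 to 0.80 with 1 mouse left out. *Sox9* was at -0.00183 with the *Xist* covariate, -0.28 among the 5 mice, -0.0307 with the *Xist* factor, and -0.10 to 0.27 with 1 mouse left out. *Clu* was at -0.0293 with the covariate, -0.00166 among the 5 mice, -0.0490 with the factor, and -0.0853 to 0.13 with 1 mouse left out, and *Lcn2* at -0.00720 to 1.34 with 1 mouse left out. The cause was not tested.

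Same-numbered mice of the 2 genotypes deviated together at correlations of -0.46 to 0.21, so the numbers do not pair the mice, and the replicate block gave 0 injury markers called. Depth limits *Krt20*, *Timp1* and *Cxcl1* the most.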

Other observations

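*Timd2*, a relative of *Havcr1* that lies beside it on chromosome 11 (46668960 to 46707061), was picked out after its values had been seen. It had 18.0, 0.976, 0.610 and 0.217 CPM in Maf conditional KO mice 1 to 4 and 2.21, 3.61, 38.8 and 47.3 CPM in Maf flox/flox mice 1 to 4, with the 3 low-*Xist* mice the highest, as for *Havcr1*. Over all 8 mice its log2 fold change was -2.20 ± 1.57 (edgeR, adjusted *P* = 0.610), and with *Xist* class in the fit it was -1.63 ± 0.30 (adjusted *P* = 0.0119). By *Xist* class it was 18.6-fold higher in low-*Xist* mice (edgeR adjusted *P* = 1.6e-05).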
